A study of Homo sapiens with 4 samples.

Results

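The 10 genes covered here help decide whether a stressed cell enters apoptosis: the BCL2 family members BCL2, BCL2L1, MCL1, BAX, BAK1, BBC3, PMAIP1 and BCL2L11, and the TRAIL receptors TNFRSF10A and TNFRSF10B. Members were read from probe sets whose annotation named that gene alone. This gave 33 probe sets for 9 of the 10 members, out of 41097 probe sets for 19775 genes. BBC3 had no probe set of its own, since the probe set that names it also names MIR3190 and MIR3191, and its level is not analysed here.

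The study compared a pair of human breast cancer cell lines, MDA-MB-231, a triple negative line, and T-47D, an estrogen receptor positive ductal carcinoma line, on Affymetrix U133 Plus 2.0 arrays. Each line was cultured for 24 h with 100 μM JPH203, an inhibitor of the amino acid transporter LAT1, or with Captisol, the cyclodextrin vehicle, at the same concentration as the control. There was 1 array per condition, 4 arrays in all, so no replicate error exists and no test between conditions could be run. All values below describe single arrays.

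Apoptosis can start inside the cell or at its surface. In the mitochondrial route, BAX and BAK1 open the outer membrane of mitochondria, the anti-apoptotic proteins BCL2, BCL2L1 (BCL-xL) and MCL1 hold them back, and the BH3-only proteins BBC3 (PUMA), PMAIP1 (NOXA) and BCL2L11 (BIM) relieve that restraint. In the surface route, the ligand TRAIL binds the receptors TNFRSF10A (DR4) and TNFRSF10B (DR5), which recruit FADD and caspase-8. Amino acid shortage activates the transcription factors ATF4 and DDIT3 (CHOP), and several of these genes are known targets of that stress response in other settings.

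The start regions of a pair of BH3-only genes are shown because PMAIP1 separated the lines most among the members and BCL2L11 had the only ratio outside the central range in MDA-MB-231 cells. Each sequence runs from 250 bases before to 50 bases after the start site, on the plus strand of GRCh38.p14, from RefSeq. PMAIP1 lies at chr18:59899746-59900045 and BCL2L11 at chr2:111120664-111120963. The capitals mark the letters TGACG, the core of cAMP response element type sites, which were searched on both strands and found here as the reverse complement.
PMAIP1: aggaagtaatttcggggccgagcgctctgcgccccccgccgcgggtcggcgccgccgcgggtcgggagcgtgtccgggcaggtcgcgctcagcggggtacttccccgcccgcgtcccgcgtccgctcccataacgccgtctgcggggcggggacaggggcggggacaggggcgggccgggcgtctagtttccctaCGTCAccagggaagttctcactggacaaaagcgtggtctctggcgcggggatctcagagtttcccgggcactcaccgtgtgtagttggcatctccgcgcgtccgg
BCL2L11: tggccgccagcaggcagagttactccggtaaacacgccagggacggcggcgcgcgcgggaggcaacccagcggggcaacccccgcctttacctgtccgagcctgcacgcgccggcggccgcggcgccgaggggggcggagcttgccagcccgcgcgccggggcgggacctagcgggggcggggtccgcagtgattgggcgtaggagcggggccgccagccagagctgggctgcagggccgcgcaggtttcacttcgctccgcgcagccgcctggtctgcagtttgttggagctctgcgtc
The PMAIP1 region was 71.3% G or C and held 42 CpG dinucleotides, and the BCL2L11 region 74.7% and 39, against medians of 58.7% and 14 over 35116 RefSeq promoters of this length. The match in PMAIP1 lay 55 bases before the start site, and BCL2L11 had none. The search covered 8 start regions of 7 members. No RefSeq start region was at hand for MCL1. TNFRSF10A and TNFRSF10B were left out by plan, so nothing is said of their start regions. TGACG occurred in 4 of the 8 (BAX, BCL2, BCL2L1 and PMAIP1) and in 24.6% of all promoters. The composite element TGATGNAA, the form that ATF4 binds with C/EBP partners, occurred in 0 of the 8 and in 3.62% of all promoters. A match in letters is not a measured binding site.

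The authors deposited linear intensities, on a scale where the mean of each array without its extreme values is 100. Within a line, probe sets with both signals at 100 or above were compared. A gene was called higher where the JPH203 over control ratio of 1 such probe set was 2 or more, and lower where it was 0.5 or less. Between 10831 and 11857 probe sets reached 100 on an array. The central 95% of these ratios ran from 0.778 to 1.33 for MDA-MB-231, and for T-47D from 0.501 to 1.97. The labels fit the markers. The T-47D control exceeded that of MDA-MB-231 by 2-fold or more for each of 10 luminal markers, with ESR1 at 735 against 6.4. The reverse held for 6 of 7 mesenchymal markers compared, the exception being LGALS1. No leukocyte or endothelial marker reached 100 on any array.

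Among the members, 1 gene passed 2-fold with JPH203, MCL1, which was lower in T-47D cells. In MDA-MB-231 cells none of the 8 members compared was higher, against 0.0883% of the 6792 genes compared, and none was lower, against 0.0147%. In T-47D cells none of 5 members compared was higher, against 2.56% of 6451 genes, and 1 was lower, against 2.95%. The counts are a description, since no error could be set on them. The median log2 ratio over the members' brightest probe sets was 0.01 for MDA-MB-231, where that of all genes compared was -0.01. For T-47D the medians were 0.44 over 5 members and -0.02 over all genes compared. Under scaling to spike-in RNA 3 members could be compared, with a median of -0.21. With each gene's probe sets averaged 2 members could, with a median of 0.23. These medians thus cover different sets of members.

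**Figure D1:**
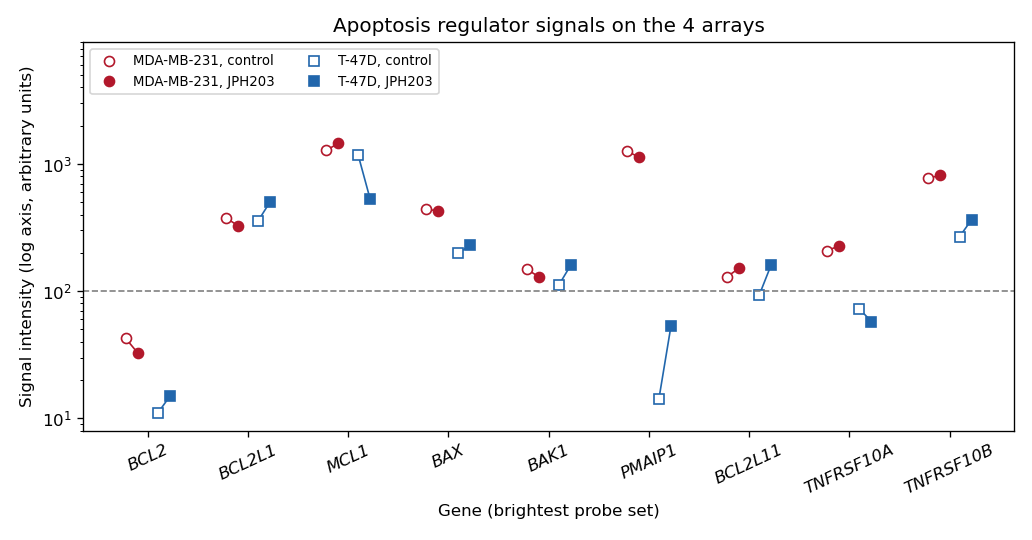
Signal intensity (log axis) of each member's brightest probe set on the 4 arrays, with circles for MDA-MB-231, squares for T-47D, controls open and JPH203 filled. The dashed line marks the minimum signal of 100. MCL1 in T-47D cells drops from 1169 to 525, PMAIP1 reads 1257 and 1132 on the MDA-MB-231 arrays and 14.3 and 53.2 on those of T-47D, and BCL2 is below 100 on every array.

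Of the anti-apoptotic members, MCL1, a short-lived protein that binds BAK1 and the BH3-only proteins, had the largest change among probe sets at 100 or above on both arrays. Probe set 200797_s_at read 1275 in the MDA-MB-231 control and 1448 with JPH203, and 1169 in the T-47D control and 525 with JPH203. The 3 other readings lay close together, and the T-47D array with JPH203 alone was low. The MDA-MB-231 ratio was 1.14. That of T-47D was 0.4495, a log2 change of -1.15. Of the 1472 probe sets with a control signal within 1.5-fold of it in this line, 1.29% had a ratio as low. The second bright MCL1 probe set, 200798_x_at, read 697.5 (control) and 607 (JPH203) on the MDA-MB-231 arrays, and 768 and 453 on those of T-47D. Its T-47D ratio of 0.590 was on the same side but did not pass 2-fold, and 9.41% of probe sets of like signal had a ratio as low. The other 4 MCL1 probe sets were below 100 on all arrays, with T-47D ratios from 0.643 to 0.998 that are not read as sizes. Between 21.0% and 59.7% of probe sets of like signal had ratios as low as theirs. The call for MCL1 therefore rested on 1 probe set.

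Genes called lower in T-47D cells had a median genomic length of 78.1 kb, against 27.1 kb over all genes compared. MCL1 spans 5.05 kb. With the trend of the ratio on gene length removed, a step chosen after seeing the data, the log2 ratio of MCL1 was -1.34. Whether gene length had a part in any of these ratios was not tested. Between the control arrays MCL1 differed little, with ratios of MDA-MB-231 over T-47D of 1.09 and 0.909 on its bright probe sets. Among 5284 genes that reached 100 on each of the 4 arrays, the profiles nearest to that of MCL1 were those of PAM, which amidates peptide hormones, GFPT1, the first enzyme of the hexosamine pathway, TPR, a nuclear pore protein, CTTN, an actin-binding protein, and TIMP2, a metalloproteinase inhibitor. Likeness was the Euclidean distance of log2 signals centred on each gene's mean over 4 arrays, which ran from 0.0423 for PAM to 0.137 for TIMP2. Their T-47D ratios lay between 0.431 and 0.492, near that of MCL1 because they were picked on the same signals.

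BCL2L1, which restrains both BAX and BAK1, was measured by 1 probe set above the minimum, 212312_at. MDA-MB-231 cells gave 376 without and 327 with JPH203, a ratio of 0.870. T-47D cells gave 355 without and 502 with it, a ratio of 1.41. The lines thus had close control signals and their ratios lay on opposite sides of 1, neither past 2-fold, with T-47D on the other side under scaling to spike-in RNA. Among T-47D probe sets of like signal, 11.8% had a ratio as high. The other 3 BCL2L1 probe sets did not exceed 77.1 on any array. BCL2, the founding member of the family and a gene often high in estrogen receptor positive tumours, did not reach the minimum. Its brightest probe set, 203685_at, read 42.6 (control) and 32.7 (JPH203) on the MDA-MB-231 arrays, and 11.0 and 14.9 on those of T-47D, and the other 3 stayed at or below 28.9. No ratio of BCL2 is read as a size.

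The pore-forming effectors stayed within the spread of all probe sets in both lines. On probe set 208478_s_at, BAX read 440.0 in control and 427 in treated MDA-MB-231 cells, and 198 in control and 231 in treated T-47D cells, with ratios of 0.970 and 1.17. Its other probe set, 211833_s_at, read 414 (control) and 411 (JPH203) on the MDA-MB-231 arrays, and 242 and 188 on those of T-47D, with ratios of 0.992 and 0.776. The probe sets of BAX thus lay on opposite sides of 1 in T-47D cells. BAK1, by its single probe set 203728_at, read 149 (control) and 130.0 (JPH203) on the MDA-MB-231 arrays, and 111 and 160.0 on those of T-47D. The ratios were 0.874 and 1.44, and 8.66% of T-47D probe sets of like signal had a ratio as high.

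The BH3-only gene PMAIP1 differed most between the lines. Probe set 204285_s_at read 1257 in the MDA-MB-231 control and 1132 with JPH203, against 14.3 in the T-47D control and 53.2 with JPH203. Probe set 204286_s_at read 935 (control) and 916 (JPH203) on the MDA-MB-231 arrays, and 14.8 and 33.8 on those of T-47D. Both probe sets were far above the minimum in one line and below it in the other. Against the minimum of 100, the MDA-MB-231 control was at least 12.6-fold and at least 9.35-fold higher. Of 2129 probe sets at 1000 or more in the MDA-MB-231 control, 76, or 3.57%, were below 100 in the T-47D control, and 27 were at or below the 14.3 of PMAIP1. With JPH203 the MDA-MB-231 ratios were 0.901 and 0.980. In T-47D cells both PMAIP1 probe sets read higher with JPH203, but all 4 values were below the minimum, where ratios vary widely. There 0.420% of 10010 probe sets of like signal had a ratio as high as that of 204285_s_at, and 4.60% of 9961 one as high as that of 204286_s_at.

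BCL2L11, a BH3-only gene whose protein binds all the anti-apoptotic members, had 7 probe sets, of which 3 reached the minimum on some array. Probe set 1553096_s_at read 130 (control) and 152 (JPH203) on the MDA-MB-231 arrays, and 92.9 and 161 on those of T-47D. The T-47D control value was just under the minimum, so this ratio of 1.74 was not counted, and 3.70% of probe sets of like signal had one as high. Probe set 225606_at read 189 (control) and 133 (JPH203) on the MDA-MB-231 arrays, and 49.2 and 56.1 on those of T-47D. Its MDA-MB-231 ratio of 0.704 was the only one of the 14 member probe sets compared in that line that lay outside the central 95%, and 1.30% of 4076 probe sets of like signal had a ratio as low. Probe set 1558143_a_at read 116 (control) and 111 (JPH203) on the MDA-MB-231 arrays, and 27.0 and 26.3 on those of T-47D. The probe sets of BCL2L11 disagreed on the direction with JPH203 in MDA-MB-231 cells, at 1.17, 0.704 and 0.959.

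The TRAIL receptors were both higher in MDA-MB-231 cells. TNFRSF10B, the receptor known as a CHOP target, was measured by probe set 209295_at, which read 769.5 in control and 810 in treated MDA-MB-231 cells, and 269 in control and 365 in treated T-47D cells. Its ratios with JPH203 were 1.05 and 1.36, and 13.2% of T-47D probe sets of like signal had a ratio as high. The 3 other TNFRSF10B probe sets did not exceed 38.2 on any array. TNFRSF10A, on probe set 231775_at, read 208 in control and 228 in treated MDA-MB-231 cells, and 72.4 in control and 57.7 in treated T-47D cells. On probe set 1552648_a_at it read 131 (control) and 138 (JPH203) on the MDA-MB-231 arrays, and 73.1 and 52.3 on those of T-47D. Of all 8311 genes compared, 26.7% were likewise 2-fold or more higher in the MDA-MB-231 control. The third TNFRSF10A probe set stayed at or below 80.7.

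**Figure D2:**
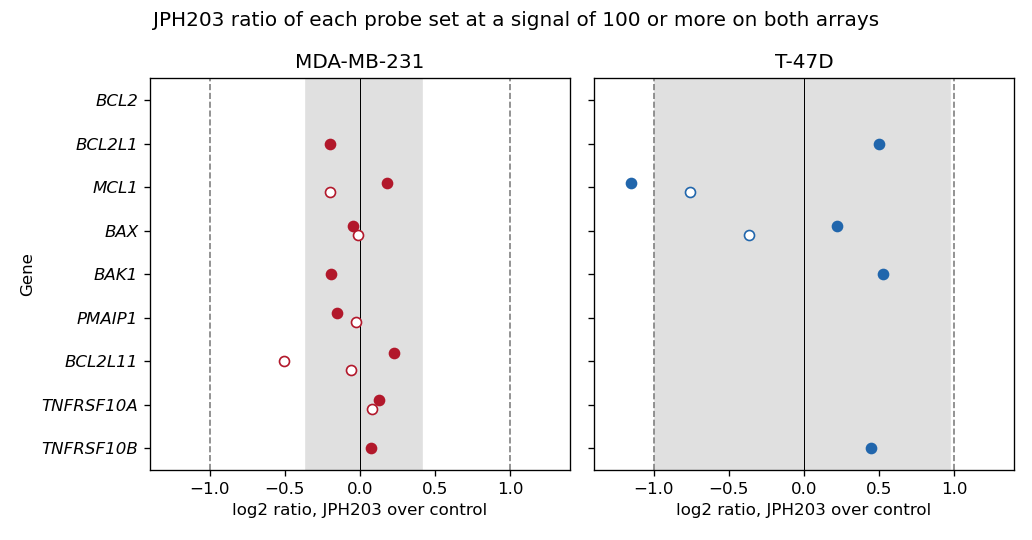
The log2 ratio of JPH203 over control for each member probe set at or above a signal of 100 on both arrays of its line, MDA-MB-231 left and T-47D right, filled for the brightest probe set of a gene. Grey bands are the central 95% of all probe sets compared and dashed lines mark 2-fold. In T-47D cells 1 MCL1 probe set lies past the lower line, at -1.15, and in MDA-MB-231 cells 1 BCL2L11 probe set lies outside the band, at -0.51.

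The signs of the small T-47D ratios depended on the scaling. The 20 probe sets of poly-A spike-in RNA, a control that is usually added in fixed amounts, read 1.57 times their control signal in T-47D cells given JPH203. For MDA-MB-231 the figure was 0.911 times. Scaling to these spike-ins moved the median log2 ratio of all probe sets to -0.54 for T-47D and 0.13 for MDA-MB-231, and turned BCL2L1, BAX, BAK1 and TNFRSF10B in T-47D cells and BAX in MDA-MB-231 cells to the other side of 0. MCL1 stayed below 0 in T-47D cells under all 5 scalings, between -1.81 and -1.10. Whether RNA per cell changed, or only its makeup, cannot be told apart here. The 3′ to 5′ signal ratio of ACTB, a measure of RNA integrity, was 1.39 in the T-47D control and 1.72 with JPH203. On the MDA-MB-231 arrays it was 1.45 (control) and 1.44 (JPH203). The same ratio for GAPDH went the other way in T-47D, at 0.940 (control) and 0.867 (JPH203). MDA-MB-231 gave GAPDH ratios of 0.987 (control) and 1.01 (JPH203). Whether RNA integrity had a part in the results was not tested.

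The second question was how the members' levels differed between the untreated lines. Of the 8 members that reached 100 on either control array, 5 were 2-fold or more higher in MDA-MB-231, against 26.7% of 8311 genes compared. None was higher in T-47D, against 26.2%. The 5 were BAX, PMAIP1, BCL2L11, TNFRSF10A and TNFRSF10B. Of 14 probe sets compared, 13 read higher in MDA-MB-231 by any amount, the exception being 200798_x_at of MCL1. With both control arrays at 100 or more, 2 of 5 members were higher in MDA-MB-231, against 18.4% of 5711 genes, and none in T-47D, against 17.1%. Those 2 were TNFRSF10B, at a ratio of 2.87, and BAX, at 2.22 on one probe set and 1.71 on the other. Where the T-47D signal was below 100, only a bound against 100 is given. TNFRSF10A was at least 2.08-fold higher on 231775_at and at least 1.31-fold on 1552648_a_at. BCL2L11 was at least 1.89-fold higher on 225606_at, at least 1.30-fold on 1553096_s_at and at least 1.16-fold on 1558143_a_at. With such signals set to 100, BCL2L11 did not pass 2-fold and the 4 others did. For MCL1, BCL2L1 and BAK1 the control ratios were between 0.909 and 1.34. The spike-ins read 3.22 times higher in the T-47D control than in the MDA-MB-231 control, and scaling to them put all 8 members higher in MDA-MB-231, together with 77.3% of all genes compared.

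**Figure D3:**
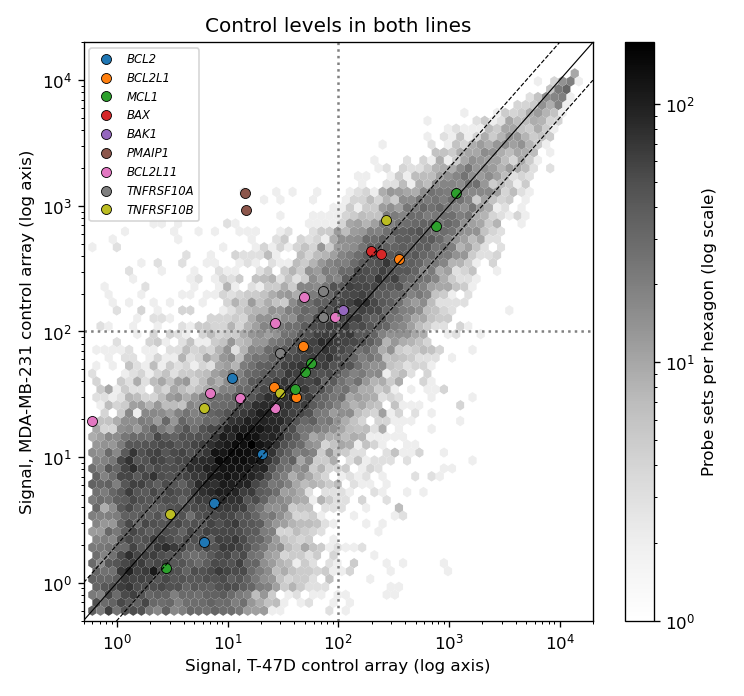
Control signals of the probe sets on the arrays, with very low signals left out (grey hexagons, darker for more probe sets). The members' probe sets are coloured points. T-47D is on the horizontal and MDA-MB-231 on the vertical axis, both log axes. The solid line is equality, dashed lines 2-fold and dotted lines a signal of 100. Both PMAIP1 probe sets lie far above the 2-fold line, at 1257 and 935 against 14.3 and 14.8, and the bright MCL1 probe sets lie near the line of equality.

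Around the members, 74 further genes of the cell death and stress pathways were read from lists, of which 67 had a probe set. For MDA-MB-231, 0 of 44 compared passed 2-fold in either direction. In T-47D cells 5 of 46 (10.9%) were higher and 2 (4.35%) lower, beside 2.56% and 2.95% of all genes. Between the control arrays MDA-MB-231 was higher for 13 of 54 (24.1%) and T-47D for 16 (29.6%), near the 26.7% and 26.2% of all genes.

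All 5 that were higher in T-47D cells came from the CHOP and ATF4 axis, where 10 genes were compared and none was lower. DDIT3, the transcription factor CHOP, had a T-47D control signal of 238 and a treated one of 2269, a ratio of 9.53, beside 106 and 153 for MDA-MB-231. ATF4 read 1676 (control) and 5593 (JPH203) on the T-47D arrays, and 1466 and 1357 on those of MDA-MB-231. TRIB3, a pseudokinase induced by CHOP, read 945 (control) and 3454 (JPH203) on the T-47D arrays, and 141 and 189 on those of MDA-MB-231. The C/EBP factors CEBPB and CEBPG had T-47D ratios of 2.02 and 2.25, and MDA-MB-231 ratios of 1.21 and 1.01. The member called a CHOP target above, TNFRSF10B, had a T-47D ratio of 1.36 beside the DDIT3 ratio of 9.53. Divided by the T-47D spike-in ratio of 1.57, DDIT3, TRIB3 and ATF4 were at 6.05, 2.32 and 2.12, while CEBPG and CEBPB were at 1.43 and 1.29 and no longer passed 2-fold.

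Of the regulators and partners of the BCL2 family, 9 were compared in T-47D cells. Of these, 1 was lower and 0 higher, beside 2.95% and 2.56% of 6451 genes. This was USP9X, a deubiquitinase known to stabilise MCL1 protein. In T-47D cells it read 889 and 374 on probe set 201100_s_at and 364 and 175 on 201099_at, ratios of 0.420 and 0.481. The MDA-MB-231 readings were 1375 and 1409 on the former and 748 and 736 on the latter. Whether USP9X had a part in the MCL1 readings was not tested. In T-47D cells 229573_at read 49.4 and 12.9 and 230543_at read 9.9 and 24.1, all below the minimum. USP9X spans 151 kb. The brightest of this list were HUWE1, a ubiquitin ligase of MCL1, and VDAC2, a BAK1 partner on mitochondria. HUWE1 ranked there by 207783_x_at alone, at 11092 in the T-47D control, while its next brightest probe set, 208598_s_at, read 1044. The ratios of these HUWE1 probe sets disagreed in T-47D cells, at 1.53 and 0.526, and VDAC2 had a ratio of 1.51. In MDA-MB-231 cells these ratios were 0.993, 0.969 and 0.932.

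Among inhibitors of apoptosis, which block caspases, BIRC6, which spans 262 kb, was lower in T-47D cells, at 247 and 112, and read 398 and 376 in MDA-MB-231 cells. BIRC5 (survivin) had a T-47D ratio of 1.76 and BIRC2 one of 1.27, beside MDA-MB-231 ratios of 1.01 and 0.889. BCL2L2, the remaining anti-apoptotic gene with a signal above 100, read 231 (control) and 192 (JPH203) on the MDA-MB-231 arrays, and 120.2 and 47.1 on those of T-47D, the last value below the minimum. BCL2A1 and BCL2L10 did not exceed 34.7 on any array. Of the other BH3-only genes, BID, which links the death receptors to mitochondria, had brightest probe set ratios of 1.01 for MDA-MB-231 and 1.02 for T-47D, and BAD, which binds BCL2L1, 0.975 and 0.976. Between the control arrays BID was 2.13 times higher in T-47D on 211725_s_at and BAD 2.005 times on 1861_at. The brightest BAD probe set, 209364_at, was 1.64 times higher there and 204493_at of BID 1.75 times, neither past 2-fold. On 227143_s_at BID read lower in T-47D, at 172 against 224. BOK, a BAX relative, read 108 and 97.5 in MDA-MB-231 and 60.8 and 70.3 in T-47D cells.

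The ligand TRAIL itself, TNFSF10, read 92.3 (control) and 152 (JPH203) on the MDA-MB-231 arrays, and 136 and 154 on those of T-47D on its brightest probe set. Its decoy receptors were low, with TNFRSF10C at most 68.5 and TNFRSF10D at most 82.9 on any array. CASP8, the caspase that TRAIL receptors activate, was 3.40 times higher in the MDA-MB-231 control, at 400.4 against 118, and had ratios with JPH203 of 1.05 and 1.15. FADD, the adaptor, had ratios of 1.02 and 1.04, and CFLAR, the caspase-8 inhibitor, 1.19 and 1.24. Of other death receptors, FAS read 226 in the T-47D control and 90.6 in that of MDA-MB-231, TNFRSF21 read 133 and 902, and TNFRSF1A 191 and 242. The T-47D ratios with JPH203 of FAS and TNFRSF1A were 1.30 and 0.836. TRAIL receptors, CASP8 and TNFRSF21 were thus higher in the MDA-MB-231 control and FAS in the T-47D control. TRADD, also on these lists, was higher in the T-47D control too, at 222 against 100.0 on 1729_at.

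Downstream of mitochondria, CYCS (cytochrome c) and DIABLO (SMAC) were the brightest of 8 genes, with T-47D ratios of 1.10 and 1.32, and 0.964 and 1.08 for MDA-MB-231. Of stress and DNA damage response genes, none of 7 compared in T-47D cells and none of 6 in MDA-MB-231 cells passed 2-fold. CDKN1A, a cell cycle inhibitor, had ratios of 1.10 for T-47D and 1.31 for MDA-MB-231, and MDM2, a ubiquitin ligase, 0.920 and 1.04. TP53I3, a quinone oxidoreductase, read 4769 in the T-47D control and 9125 with JPH203, a ratio of 1.91.

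**Figure D4:**
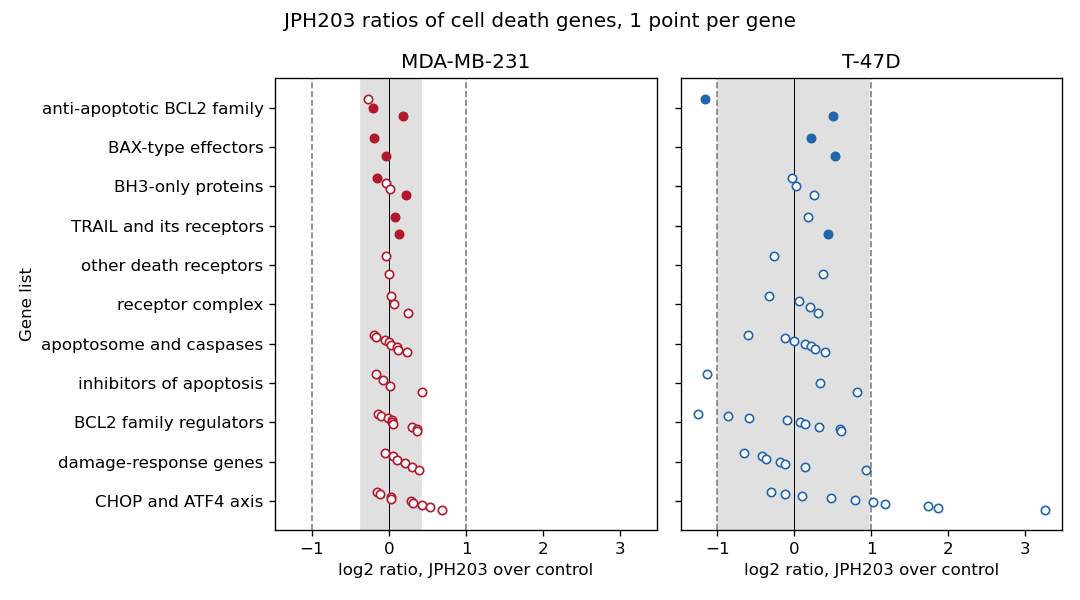
The log2 ratio of JPH203 over control for each gene of the lists at or above 100 on both arrays, 1 point per gene from its brightest such probe set, MDA-MB-231 left and T-47D right. Filled points are members, grey bands the central 95% of all probe sets and dashed lines 2-fold. In T-47D cells 5 genes of the CHOP and ATF4 axis lie above the upper line, up to 3.25 for DDIT3, while MCL1, USP9X and BIRC6 lie below the lower line.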

How the data were processed

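Total RNA of each culture was hybridised to U133 Plus 2.0 arrays (JPH203, or control, 1 array each in 2 lines). The authors deposited 1 linear intensity for each probe set. GCOS is named in the submitters' processing notes, while its version and settings are not given in the sources used here. Detection calls were not used. Each array has a trimmed mean of 100, with the lowest and highest 2% left out. Low signals are dominated by background, so ratios below 100 are not read as sizes. Precision is limited by 1 array per condition. Probe sets were named from the platform annotation, with 41097 naming 1 gene, 1801 several, and 11777 not listed. Ratios, calls and ranges were computed with Python 3.11.15, numpy 2.4.6, pandas 2.3.3 and statsmodels 0.14.6. The call rule was run on simulated arrays. These held changes larger than 2-fold in probe sets well above 100, with less spread than the T-47D ratios. That run cannot show how reliable a call near 2-fold is. The members and lists were chosen with earlier results of these data known. Named genes were all members, list genes past 2-fold, the 2 brightest of each list where fewer passed, 10 fixed genes and the 5 profiles nearest the most changed member. Alternatives covered scaling, minimum signal, fold, pseudocount, probe set choice and gene length.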

Additional observations from a re-analysis of the deposited data

Results flagged for a closer look

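The MCL1 ratio with JPH203 differed between the lines on these single arrays. On its brightest probe set the log2 ratio was 0.18 for MDA-MB-231 and -1.15 for T-47D, a difference (T-47D minus MDA-MB-231) of -1.34. It was picked out because the log2 ratios lay on opposite sides of 0 and 1 of them passed 2-fold. The MDA-MB-231 ratio lay within the central 95% of its line, and 7.07% of probe sets of like signal had a ratio as high. With 1 array per condition, the difference was not tested. On 200798_x_at both ratios were below 1 and the difference was -0.56.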

How the results depend on the processing

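No paired analysis was possible because each condition had 1 array. Of 14 alternatives, the MCL1 call was lost under 3, a 3-fold threshold (0 members lower), the mean of probe sets (0, with MCL1 at -0.57) and probe sets without the _x_at and _s_at suffixes (0, at -0.54, from a probe set below 100). The last also reduced the members higher in the MDA-MB-231 control from 5 to 3, as BAX and PMAIP1 had only _s_at probe sets and went unmeasured. The 3-fold threshold and the mean of probe sets reduced them to 2. Spike-in scaling raised that count to 8. Without a minimum signal, 6 members were higher in the MDA-MB-231 control and 2 in that of T-47D (33.3% and 42.4% of all genes), and 2 were higher with JPH203 in MDA-MB-231, where 24.6% of all genes were. For T-47D there were 4 higher and 4 lower members, some counting in both directions, beside 30.6% and 26.5% of all genes. No member was lower in MDA-MB-231 cells under any of these. Quantile normalization and median centring left all counts of the main setting unchanged. Loess lowered the members higher in the MDA-MB-231 control from 5 to 4, losing BAX, and left the other counts unchanged. A minimum signal of 200 and the use of the brightest probe set alone also gave 4, each losing BCL2L11, beside 26.4% and 23.1% of all genes. Signals near 100 and single arrays limit every ratio here.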

Other observations

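Some stress genes of the lists were below the minimum signal in the T-47D control, and were picked out here after their values were seen. GDF15, a secreted stress cytokine, read 86.4 in the T-47D control and 347 with JPH203 on probe set 221577_x_at, and 18.1 and 42.5 in MDA-MB-231. CHAC1, which degrades glutathione, read 19.3 and 90.0 in T-47D and 2.9 and 16 in MDA-MB-231. SESN2, a nutrient sensor, read 58.1 and 126 in T-47D on probe set 223196_s_at, but 85.1 and 93.9 on 223195_s_at.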
